A study of Homo sapiens with 24 samples.

Results

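LBP, LY96 and CD14 encode the proteins that carry bacterial lipopolysaccharide (LPS) to Toll-like receptor 4, and each was read by 1 probe set on the arrays. They are 3 of the 14884 genes and 3 of the 53617 probe sets of the series, chosen by gene symbol with earlier results of these data known. The RNA came from HepG2 cells, an established line from a human liver tumour with hepatocyte features, plated at 10000 cells per well. The treated groups received 100 ng/mL oncostatin M (OSM) for 1 h (3 arrays) or 24 h (3 arrays), or 1 uM of the small molecule BRD8518 (a code name) for 1 h (3 arrays), 6 h (2 arrays) or 24 h (3 arrays). The vehicle groups were DMSO for 1 h (3 arrays), 6 h (4 arrays) and 24 h (3 arrays), and every group, treated or not, had 0.25% DMSO in the medium. OSM was dissolved in PBS, and no 6 h OSM array was analysed here. LPS was not among the labelled treatments, so the values describe the genes in cells given a cytokine or a compound.

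LBP, the LPS-binding protein, is made mainly by hepatocytes, is secreted into plasma and lifts single LPS molecules out of bacterial membranes. CD14, held on the cell surface by a lipid anchor or shed in soluble form, takes LPS from LBP and passes it to MD-2, the small protein that LY96 encodes. MD-2 sits on the outer part of TLR4 and binds the lipid end of LPS, after which TLR4 signals through the adaptors MyD88 with TIRAP and TRIF (gene TICAM1). OSM is a cytokine of the interleukin 6 family whose receptors share the chain gp130 and act through JAK kinases and STAT3, a route long linked to the acute phase response of the liver, of which LBP is a known part.

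All levels below are log2 values as the authors deposited them, 1 unit being a 2-fold step, and changes are differences of group means with their standard error (SE). A gene is said to have risen or fallen where limma, fitted over all genes and arrays, gave a Benjamini-Hochberg adjusted p under 0.05. The array medians lay between 4.89 and 4.95 over all probe sets, and between 5.933 and 6.025 over the 14884 genes. DMSO 6 h replicate 2 stood apart, with a mean correlation of 0.977 with the other arrays of its group over genes, against 0.988 to 0.997 for the other 23 arrays. The differences of the members between BRD8518 and DMSO at 6 h are therefore given with and without it. Other 6 h results, among them the counts over gene lists, include that array unless stated. Of 10 measured hepatocyte markers, 9 were at 9.66 or above on every array (APOA1 went down to 7.76), and ALB, the albumin gene, was at 12.13 to 12.54. Of 8 measured macrophage markers, CD163, CCR2 and MARCO stayed at 3.17 to 4.96 on every array and CSF1R, VSIG4 and TYROBP at 5.15 to 6.11, while LYZ and CD68, which liver cells can also express, were at 11.99 to 12.34 and 9.44 to 10.79. Precision is limited by the number of arrays in a group.

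OSM raised all 3 genes at both times, LBP by the largest fold. With BRD8518 LY96 rose at 24 h, and the other differences did not pass, apart from LBP at 6 h once DMSO 6 h replicate 2 was left out. In DMSO cells all 3 sat near the array median over all probe sets, and below that over genes. Over the 10 vehicle arrays LBP ran from 4.50 to 5.12 with a median of 4.72. LY96 ran from 3.82 to 4.87 with a median of 4.58, and CD14 from 4.77 to 5.31 with a median of 5.12. Such low values carry no detection call, so it is not known whether the vehicle cells expressed the genes, and folds against them may be understated. Vehicle levels did not move past the threshold with time in culture. From 6 h against 1 h of DMSO the differences were 0.04 ± 0.12 for LBP, −0.20 ± 0.20 for LY96 and −0.06 ± 0.13 for CD14, in a comparison where limma called 0.00672% of all genes. From 24 h against 6 h they were −0.07 ± 0.12, 0.18 ± 0.20 and −0.08 ± 0.13, and 0% of genes were called (limma, SE throughout). All 6 h arrays carry the position letter D in their labels and the others A, B or C, so time and that letter cannot be told apart here.

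**Figure D1:**
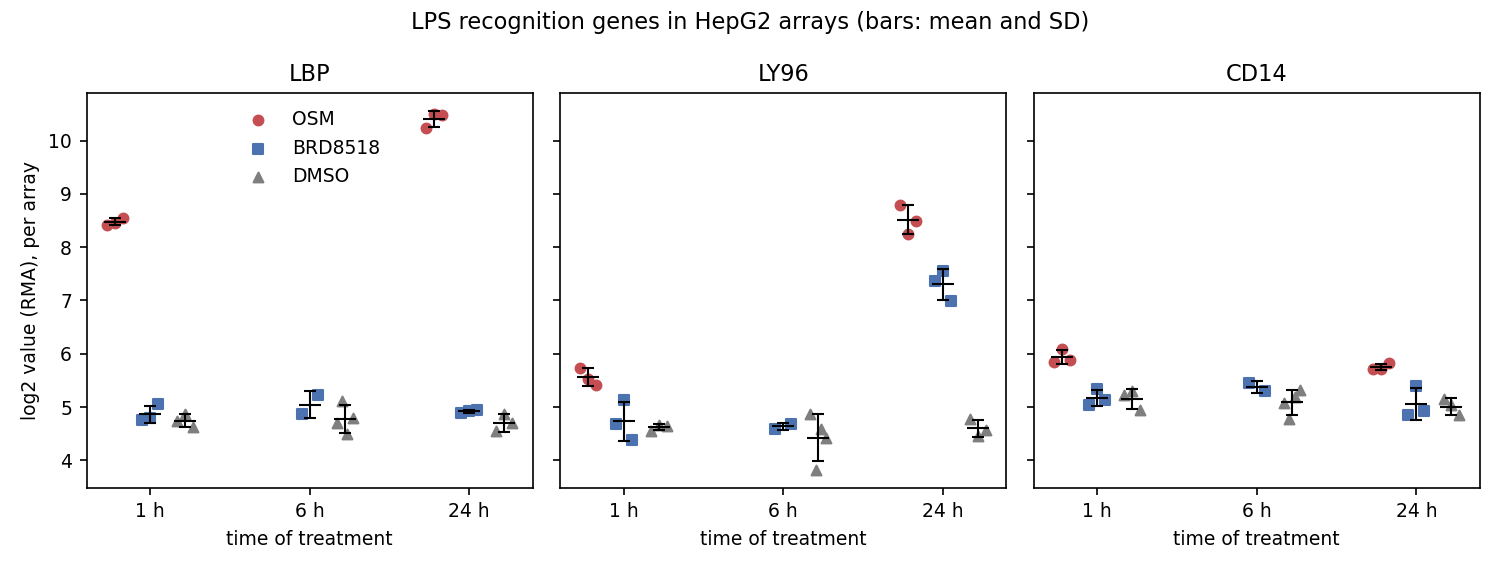
Log2 value of LBP, LY96 and CD14 on each of the 24 arrays, by time of treatment (x axis); points are arrays, and bars give the mean and SD of a group. LBP stood at 8.42 or above in the OSM arrays alone, LY96 was high at 24 h under both OSM and BRD8518, and CD14 kept within 4.77 to 6.08 throughout.

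LBP had 8.42, 8.45 and 8.54 after 1 h of OSM, against 4.74, 4.87 and 4.62 in DMSO at 1 h. Every OSM array was thus at least 3.56 above every vehicle array. The rise came to 3.73 ± 0.13, or 13.3-fold (limma, Benjamini-Hochberg adjusted p = 8.21e-15), and ranked 2 among the 14884 genes in that comparison. At 24 h LBP had 10.23, 10.50 and 10.47 under OSM, against 4.54, 4.88 and 4.70 in DMSO. The gap between the groups had widened to 5.36 between the closest arrays. This change, 5.70 ± 0.13 or 51.9-fold (limma, adjusted p = 3.48e-18), ranked 1 of all genes. The effect of OSM on LBP was larger at 24 h than at 1 h by 1.96 ± 0.18 (limma, adjusted p = 4.26e-07; 3.37% of genes differed between the times, 1.27% with a positive difference).

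BRD8518 left LBP near vehicle level. It had 4.76, 4.79 and 5.05 after 1 h of BRD8518, against 4.74, 4.87 and 4.62 in DMSO, and the arrays overlapped. At 6 h the values were 4.87 and 5.22 under BRD8518, against 4.70, 5.12, 4.50 and 4.80 in DMSO, and at 24 h they were 4.89, 4.93 and 4.94, against 4.54, 4.88 and 4.70. The 24 h groups were parted by 0.01 at their closest. The differences were 0.13 ± 0.13, 0.27 ± 0.14 and 0.22 ± 0.13 at 1, 6 and 24 h, with limma adjusted p = 1, 0.235 and 0.259. At 24 h the 95% confidence interval ran from −0.05 to 0.49, which leaves room for a small difference. Without DMSO 6 h replicate 2 the 6 h difference was 0.38 and passed (limma, adjusted p = 0.0281). Set directly against OSM, LBP under BRD8518 was lower by 3.61 ± 0.13 (−3.61; 12.2-fold) at 1 h and by 5.48 ± 0.13 (−5.48; 44.6-fold) at 24 h (limma, adjusted p = 2.52e-14 and 7.9e-18).

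LY96 had 5.74, 5.53 and 5.41 after 1 h of OSM, against 4.56, 4.67 and 4.64 in DMSO, with no overlap. It was 0.94 ± 0.21 higher, or 1.91-fold (limma, adjusted p = 0.0112), but the call was lost without OSM 1 h replicate 1 (0.85) or DMSO 1 h replicate 1 (0.90). By 24 h its values were 8.79, 8.25 and 8.50 under OSM, against 4.78, 4.46 and 4.57 in DMSO. All OSM arrays were at least 3.47 above the vehicle arrays, and the change of 3.91 ± 0.21, or 15-fold (limma, adjusted p = 1.43e-11), ranked 2 of all genes, next to LBP. LY96 was the gene whose OSM effect grew most between 1 h and 24 h, by 2.97 ± 0.30 (limma, adjusted p = 8.29e-07; rank 1).

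LY96 rose with BRD8518 as well, at 24 h. At 1 h it had 4.68, 5.13 and 4.39 under BRD8518, against 4.56, 4.67 and 4.64 in DMSO, and at 6 h 4.59 and 4.69, against 4.87, 3.82, 4.59 and 4.42. The groups overlapped at both times, with differences of 0.11 ± 0.21 and 0.21 ± 0.22 (limma, adjusted p = 1 and 0.63). Without DMSO 6 h replicate 2, whose 3.82 was the lowest LY96 value of all arrays, the 6 h difference was 0.01 (limma, adjusted p = 0.978). After 24 h LY96 had 7.37, 7.56 and 6.99 under BRD8518, against 4.78, 4.46 and 4.57 in DMSO. Each treated array was at least 2.21 above each vehicle array. The rise of 2.70 ± 0.21 was 6.51-fold (limma, adjusted p = 9.68e-10) and ranked 17 of all genes. Between 6 h and 24 h the effect of BRD8518 grew by 2.49 ± 0.31 (limma, adjusted p = 8.07e-06), or by 2.69 without DMSO 6 h replicate 2. From 1 h to 6 h it differed by 0.11 ± 0.31 (limma, adjusted p = 0.915).

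The 2 agents differed in how far they raised LY96 at 24 h. With 7.37, 7.56 and 6.99 under BRD8518 against 8.79, 8.25 and 8.50 under OSM, the arrays did not overlap, and LY96 was 2.31-fold lower under BRD8518 (−1.21 ± 0.21, limma, adjusted p = 0.000128). At 1 h the difference was −0.83 ± 0.21 (limma, adjusted p = 0.0332). That 1 h call was lost in 5 of the 6 fits that left out 1 of the compared arrays, the exception being BRD8518 1 h replicate 2, with values from −1.03 to −0.66.

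Of the members, the promoter table of RefSeq (GRCh38.p14) held only CD14. Its window from 250 bases before to 50 after a transcription start is therefore shown. It spans chr5:140633126-140633425 on the minus strand, and capitals mark the 2 matches found.
CD14: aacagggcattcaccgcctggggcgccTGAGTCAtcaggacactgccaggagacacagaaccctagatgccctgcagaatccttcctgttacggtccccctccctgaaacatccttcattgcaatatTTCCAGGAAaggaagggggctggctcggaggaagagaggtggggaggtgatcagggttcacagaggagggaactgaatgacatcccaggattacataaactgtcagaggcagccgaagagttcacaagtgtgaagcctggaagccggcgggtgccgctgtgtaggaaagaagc
TTCCAGGAA, from position -123 relative to the start, matches the STAT motif TTCNNNGAA, and TGAGTCA, from position -223, matches the AP-1 motif TGANTCA. Both motifs are symmetric, so each match holds on either strand, and the matches do not overlap. Each of these motifs occurred in 7.7% of the 35116 windows of that table. No match was found in this window for the C/EBP motif TTGCNNAA (10.5% of windows), the EGR1 motif GCGNGGGCG (9.4%), the GC box GGGCGG (45.0%) or an NF-kB motif (1.9%), searched on both strands. These are matches of letters, and binding was not measured.

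CD14 had 5.84, 6.08 and 5.88 after 1 h of OSM, against 5.23, 5.29 and 4.93 in DMSO. At 24 h it had 5.72, 5.71 and 5.82 under OSM, against 5.16, 5.03 and 4.84 in DMSO. Treated and vehicle arrays were parted by 0.55 at their closest at each time. The rises were 0.78 ± 0.14 at 1 h (1.72-fold) and 0.74 ± 0.14 at 24 h (1.67-fold; limma, adjusted p = 0.00158 and 0.000989). The CD14 effect showed no change between the times that passed the test (−0.04 ± 0.20, limma, adjusted p = 0.991; 95% interval −0.46 to 0.38).

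Under BRD8518 CD14 overlapped with vehicle at every time. It had 5.05, 5.33 and 5.13 at 1 h, against 5.23, 5.29 and 4.93 in DMSO, and 4.85, 5.40 and 4.92 at 24 h, against 5.16, 5.03 and 4.84. At 6 h the values were 5.46 and 5.29, against 5.08, 4.77, 5.19 and 5.31. Its differences were 0.02 ± 0.14, 0.29 ± 0.15 and 0.05 ± 0.14 at 1, 6 and 24 h (limma, adjusted p = 1, 0.248 and 0.869), and the 6 h one was 0.18 without DMSO 6 h replicate 2. CD14 was thus lower under BRD8518 than under OSM, by 0.76 at 1 h (−0.76 ± 0.14) and by 0.69 at 24 h (−0.69 ± 0.14; limma, adjusted p = 0.00222 and 0.000828).

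**Figure D2:**
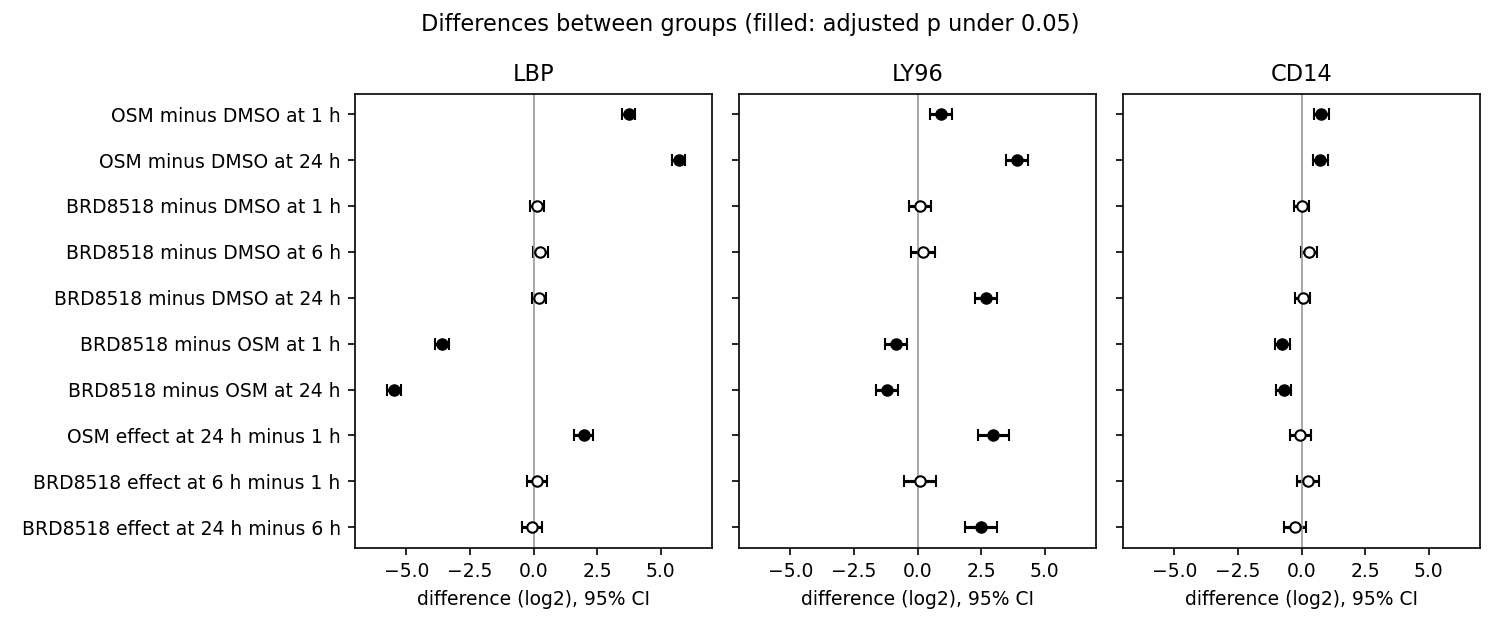
Differences between groups on the log2 scale (x axis) for each member, with 95% confidence intervals from the fit; filled points had an adjusted p under 0.05. LBP and CD14 passed for OSM against DMSO and BRD8518 against OSM at 1 h and 24 h and in none of BRD8518 against DMSO, while LY96 also passed for BRD8518 at 24 h (2.70).

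The members were chosen with earlier results of these data known, so the counts below are not independent evidence. Counted together, 3 of 3 members rose at 1 h of OSM, where 2.84% of all genes were called, 2.03% higher and 0.813% lower. The LY96 call there was lost without OSM 1 h replicate 1 or DMSO 1 h replicate 1. At 24 h of OSM 3 of 3 rose, where 10.3% were called, 4.6% higher and 5.65% lower. With BRD8518 the count was 0 of 3 at 1 h (0.255% of genes called, 0.222% higher and 0.0336% lower). It was 0 of 3 at 6 h (14.5%, 5.62% higher and 8.86% lower) and 1 of 3 at 24 h (27.7%, 12.1% higher and 15.6% lower). At 6 h LBP passed with array weights or once DMSO 6 h replicate 2 was left out. The number of genes called at 6 h ran from 1208 to 3345 without single arrays. In the direct comparison all 3 were lower under BRD8518 than under OSM, at 1 h (2.34% of genes called, 0.847% higher and 1.5% lower) and at 24 h (23.2% called, 10.9% higher and 12.3% lower). Between times, the BRD8518 effect changed for 0 of 3 from 1 h to 6 h (6.01% of genes) and for 1 of 3 from 6 h to 24 h (11.1%, 5.96% with a positive difference). OSM and BRD8518 share their vehicle arrays at 1 h and at 24 h, so their changes against DMSO are not independent of each other.

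The order of levels over the 8 groups differed among the genes. For LBP it was OSM 24 h (10.40), OSM 1 h (8.47) and then the 6 remaining groups between 5.05 and 4.70, each of which overlapped with the next in order. For LY96, OSM 24 h (8.51), BRD8518 24 h (7.30) and OSM 1 h (5.56) each stood clear of the next group, and the other 5 overlapped in turn from 4.73 to 4.43. For CD14, OSM at 1 h (5.93) and OSM at 24 h (5.75) came first without overlap, followed by 6 overlapping groups from 5.38 to 5.01. The OSM groups nearly touched, with a lowest CD14 value of 5.841 at 1 h and a highest of 5.819 at 24 h.

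LBP lies on chromosome 20, LY96 on chromosome 8 and CD14 on chromosome 5 in RefSeq GRCh38.p14. The sources used here do not give the build behind the array annotation. CD14 overlaps TMCO6 in RefSeq, and the TMCO6 probe set did not share its pattern: TMCO6 differed by −0.11 ± 0.08 and −0.01 ± 0.08 at 1 h and 24 h of OSM (limma, adjusted p = 0.718 and 0.964) and fell by 0.32 at 24 h of BRD8518 (SE 0.08, limma, adjusted p = 0.00265). The nearest measured genes beside LBP include its relative BPI, whose protein binds and neutralises LPS in neutrophil granules. BPI differed by 0.04 ± 0.11 and 0.08 ± 0.11 under OSM and by −0.10 ± 0.11 at 24 h of BRD8518 (limma, adjusted p from 0.6 to 0.971). On the other side of LBP, SNHG17 rose at 6 h of BRD8518 (0.58 ± 0.11, limma, adjusted p = 0.000541; 0.61 without DMSO 6 h replicate 2), while KIAA1755 and MIR548O2 passed in no comparison. Near CD14, DND1 fell at 6 h of BRD8518 (−0.57 ± 0.14, limma, adjusted p = 0.00647; −0.50 without DMSO 6 h replicate 2), a call lost without BRD8518 6 h replicate 2 (−0.52) or in a fit of the 6 h groups alone, and SRA1 and WDR55 passed in no comparison. Beside LY96, TMEM70 rose at 24 h of OSM (0.48 ± 0.11) and GDAP1 fell at 24 h of BRD8518 (−0.90 ± 0.11), while JPH1 and STAU2-AS1 passed in no comparison.

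The other measured genes of the LPS receptor complex, TLR4, TIRAP, MYD88 and TICAM1, did not pass under OSM at either time. TLR4, the receptor itself, had 4.69, 4.59 and 4.68 at 24 h of OSM and 5.25, 4.86 and 4.80 at 24 h of BRD8518, against 4.76, 4.73 and 4.85 in DMSO. It thus stayed near the array median over all probe sets, and below that over genes, in every group. Its differences were −0.13 ± 0.11 for OSM and 0.19 ± 0.11 for BRD8518 (limma, adjusted p = 0.608 and 0.22), while it was 0.31 ± 0.11 higher under BRD8518 than under OSM (limma, adjusted p = 0.0339). That call was lost in a fit of the 24 h BRD8518 and OSM groups alone and without any 1 of OSM 24 h replicates 1, 2 and 3 or BRD8518 24 h replicate 1 (0.18 to 0.33).

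Of the 3 adaptor genes, TICAM1 rose and MYD88 fell at 24 h of BRD8518, and TIRAP did not pass. TIRAP had 5.81, 6.15 and 5.90 at 24 h of BRD8518, against 5.99, 6.13 and 5.96 in DMSO, with overlap (−0.07 ± 0.10, limma, adjusted p = 0.702). At 6 h TIRAP differed by −0.13 ± 0.11 (limma, adjusted p = 0.515), and passed when its probe sets were averaged (−0.37, limma, adjusted p = 0.0105). TICAM1 had 7.96, 7.84 and 7.74 at 24 h of BRD8518 and 6.55, 6.65 and 6.64 at 24 h of OSM, against 6.66, 6.63 and 6.60 in DMSO. All BRD8518 arrays were above all others, a rise of 1.22 ± 0.10 (2.33-fold, limma, adjusted p = 2.47e-09). At 6 h it was 7.03 and 7.05 under BRD8518, against 6.43, 6.61, 6.42 and 6.47 in DMSO (0.56 ± 0.11, limma, adjusted p = 0.000643; 0.60 without DMSO 6 h replicate 2). MYD88 had 6.60, 6.82 and 6.67 at 24 h of BRD8518 and 7.36, 7.34 and 7.32 at 24 h of OSM, against 7.22, 7.25 and 7.30 in DMSO. It fell by 0.56 with BRD8518 (SE 0.12, limma, adjusted p = 0.000802) and differed by 0.08 ± 0.12 with OSM (limma, adjusted p = 0.813). At 6 h MYD88 had 6.98 in both BRD8518 arrays, against 7.20, 6.57, 7.26 and 7.21 in DMSO, a difference of −0.08 ± 0.13 that was −0.24 and passed without DMSO 6 h replicate 2 (limma, adjusted p = 0.784 and 0.00797).

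**Figure D3:**
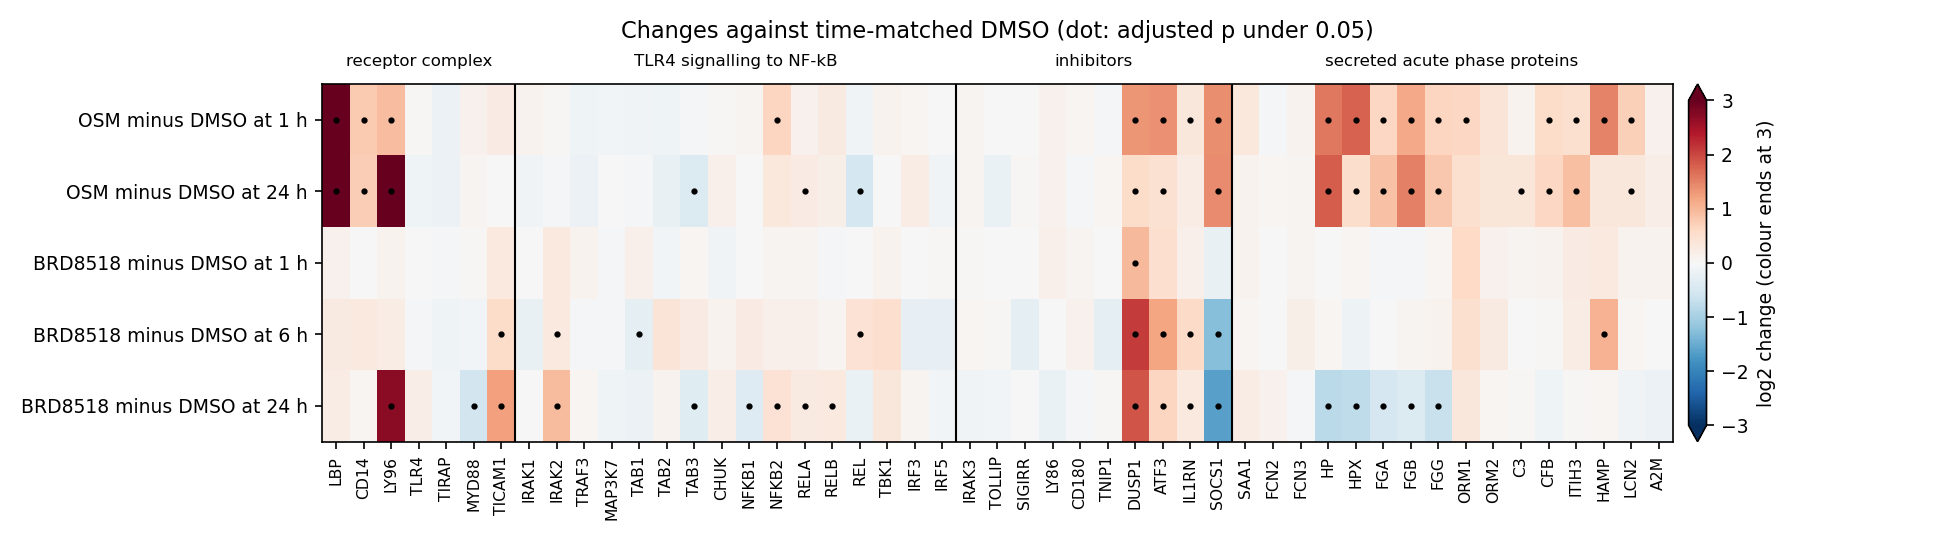
Log2 change against time-matched DMSO (colour, ending at 3 in each direction) for the measured genes of 4 lists, with a dot where the adjusted p was under 0.05. LBP, CD14 and LY96 rose in both OSM rows, while TICAM1 rose and MYD88 fell in the BRD8518 row at 24 h.

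Downstream of TLR4, 16 genes of signalling to NF-kB were measured. At 24 h of OSM 1 rose (RELA, 0.24 ± 0.07), 2 fell (REL, −0.54 ± 0.12, and TAB3, −0.41 ± 0.12) and 13 did not pass, with a median of −0.03 beside 0.01 over all genes, of which 10.3% were called. The RELA call was lost without any 1 of OSM 24 h replicates 1 and 3 or DMSO 24 h replicates 1 and 2 (0.21 to 0.23), and that of TAB3 without any 1 of the OSM 24 h replicates or DMSO 24 h replicates 1 and 2 (−0.42 to −0.35). At 24 h of BRD8518 4 rose, 2 fell and 10 did not pass (median 0.07 beside −0.01 over all genes, of which 27.7% were called), with IRAK2, a kinase of the MyD88 complex, at 0.95 ± 0.08 and NFKB1 at −0.40 ± 0.08. At 1 h the counts were 1 rise (NFKB2, 0.65 ± 0.15) under OSM and 0 changes under BRD8518, where 1 gene had an unadjusted limma p under 0.05. Over all genes, 2.84% were called at 1 h of OSM and 0.255% at 1 h of BRD8518. The NFKB2 call was lost without OSM 1 h replicate 2 (0.59) or DMSO 1 h replicate 2 (0.61).

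Among 10 inhibitors of LPS signalling, 4 rose at 1 h of OSM and 3 at 24 h, with 0 falls. Over all genes 2.03% rose at 1 h and 4.6% at 24 h. SOCS1, which encodes a suppressor of JAK kinases, rose by 1.39 ± 0.13 at 1 h and 1.41 ± 0.13 at 24 h of OSM, but fell by 1.28 (SE 0.14) at 6 h and by 1.63 (SE 0.13) at 24 h of BRD8518. DUSP1, a phosphatase that switches off MAP kinases, rose under both: by 1.33 ± 0.07 and 0.56 ± 0.07 at 1 h and 24 h of OSM, and by 0.97 ± 0.07, 2.10 ± 0.08 and 1.90 ± 0.07 at 1, 6 and 24 h of BRD8518. BRD8518 gave 1 rise at 1 h, 3 rises and 1 fall at 6 h, and the same counts at 24 h as at 6 h. Over all genes, 0.255% were called at 1 h of BRD8518, 14.5% at 6 h and 27.7% at 24 h. At 6 h the balance of rises and falls over all genes depended on scaling, with 836 higher and 1319 lower as deposited but 1309 higher and 943 lower after centring arrays on the median of the named genes.

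In the lists of other LPS-binding and pattern recognition genes, 0 of 4, 1 of 8 and 2 of 16 were called at 24 h of OSM, beside 10.3% of all genes. Of the LBP/BPI and MD-2-related families, 4 genes were measured (BPI, PLTP, LY86 and GM2A). None passed under OSM at 1 h or 24 h (0 and 2 with an unadjusted limma p under 0.05), beside 2.84% and 10.3% of all genes. At 24 h of BRD8518 GM2A, a lysosomal lipid-binding protein gene, fell by 0.88 (SE 0.06). Of 8 genes of LPS detoxification and carriage, APOA1, the main protein gene of HDL, fell at 24 h of OSM (−0.79 ± 0.15) and of BRD8518 (−0.63 ± 0.15). Of 16 other pattern recognition receptor genes, RIGI, a cytosolic RNA sensor, rose at 1 h and 24 h of OSM (0.69 ± 0.10 and 0.43 ± 0.10). IFIH1, which encodes the RNA sensor MDA5, fell at 24 h of OSM (−0.49 ± 0.12) and of BRD8518 (−1.30 ± 0.12). None of the 16 passed at 1 h or 6 h of BRD8518 (0 and 2 with an unadjusted limma p under 0.05), beside 0.255% and 14.5% of all genes. In DMSO at 6 h the group means of these 16 ran from 3.281 (TLR8) to 7.485 (RIGI). Those of the 8 ran from 3.597 (MSR1) to 12.597 (APOB), and those of the 4 from 4.457 (BPI) to 8.876 (PLTP). At the low levels, genes that were not expressed cannot be told from genes that did not respond.

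The secreted acute phase genes, the class to which LBP belongs, rose with it under OSM. At 1 h 10 of 16 rose and 0 fell, with a median change of 0.58 beside 0.01 over all genes, of which 2.03% rose. At 24 h 9 rose and 0 fell, with a median of 0.43, while 4.6% of all genes rose. HP, the haemoglobin carrier haptoglobin, rose by 1.58 ± 0.10 and 1.81 ± 0.10 at the 2 times, and FGB, a fibrinogen chain gene, by 1.14 ± 0.10 and 1.51 ± 0.10, both less than LBP in each comparison. HPX, hemopexin, rose by 1.77 ± 0.10 at 1 h. With BRD8518 0 of 16 changed at 1 h (2 with an unadjusted limma p under 0.05), beside 0.255% of all genes. At 6 h 1 rose (HAMP, the hepcidin gene, 1.04 ± 0.20), beside 5.62% of all genes. At 24 h 5 fell, beside 15.6% of all genes, HP (−0.80 ± 0.10), HPX (−0.76 ± 0.10) and FGG (−0.66 ± 0.09) among them. LBP, which is not counted in the 16, did not pass at 24 h of BRD8518 (0.22 ± 0.13). Its vehicle values of 4.50 to 5.12 were low, so a fall could hardly have been seen. HAMP did not pass in a fit of the 6 h groups alone.

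Genes of the OSM receptor and the JAK-STAT3 route rose in 7 of 13 cases at 1 h of OSM, with a median of 0.37. At 24 h 7 of 13 rose, with 1 fall and a median of 0.42. Over all genes 2.03% rose at 1 h and 4.6% at 24 h, where 5.65% fell. SOCS3, a feedback inhibitor of gp130 signalling, was 26.9-fold higher at 1 h (4.75 ± 0.14) and 11.1-fold higher at 24 h (3.47 ± 0.14). OSMR, the OSM-specific receptor chain, rose by 1.20 ± 0.07 at 24 h and LIFR, the other partner of gp130 for OSM, fell by 1.06 (SE 0.12). At 24 h of BRD8518 6 of the 13 rose and 0 fell, while 12.1% of all genes rose and 15.6% fell. IL6R, the interleukin 6 receptor, was at 2.24 ± 0.09 and the kinase gene JAK2 at 1.25 ± 0.15, while SOCS3 differed by 0.23 ± 0.14 (limma, adjusted p = 0.242).

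Marker genes of macrophages, which are rich in CD14 and LY96, were read beside the members. Averaged over 8 macrophage markers, the arrays lay at 6.29 to 6.41 at 24 h of OSM and 6.41 to 6.5 at 24 h of BRD8518, against 6.27 to 6.32 in DMSO. Of those 8 markers 1 rose in each comparison, CD68, by 0.34 ± 0.08 under OSM and 1.19 ± 0.08 under BRD8518. Over all genes 4.6% and 12.1% rose. CSF1R, the macrophage growth factor receptor gene, differed by 0.01 ± 0.13 and 0.20 ± 0.13 (limma, adjusted p = 0.987 and 0.326). At 1 h of OSM, when LBP and CD14 were already higher, 0 of 8 passed, beside 2.84% of all genes (1 of the 8 had an unadjusted limma p under 0.05). That one was TYROBP, a signalling adaptor gene of myeloid cells, with group means of 5.96 under OSM and 5.54 in DMSO (0.41 ± 0.13, limma, adjusted p = 0.0959). It passed without OSM 1 h replicate 2 (0.52) and with array weights (0.43). At 6 h of BRD8518 2 of 8 rose, beside 5.62% of all genes: CD68 (0.51 ± 0.08) and TYROBP (0.41 ± 0.14, limma, adjusted p = 0.0452). The TYROBP call was lost without any 1 of DMSO 6 h replicates 1 and 3 or either BRD8518 6 h replicate (0.31 to 0.48). Hepatocyte markers fell in 5 of 10 cases and rose in 1 (FGB) at 24 h of OSM, where 5.65% of all genes fell and 4.6% rose. They fell in 6 of 10 at 24 h of BRD8518, where 15.6% of all genes fell. The part of these markers in the members' rises was not tested, and levels in bulk RNA do not tell fewer cells of a type from less RNA per cell.

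The genes whose group means followed each member most closely were sought among the 4451 genes whose means spanned at least 0.5 over the 8 groups. For LBP they were SYNPO, COLEC12, STING1, SYN1 and CFB, with Pearson r from 0.958 to 0.984 over group means and 0.852 to 0.939 over the 24 arrays. Their spans, 0.58 to 0.94, were far below the 5.70 of LBP, and COLEC12 and CFB encode a scavenger receptor and complement factor B. For LY96 they were TMEM87B, FNDC4, ETV6, SHC1 and PAEP (r from 0.986 to 0.995 over group means and 0.925 to 0.982 over arrays). FNDC4 had group means of 8.65 at 24 h of OSM and 8.36 at 24 h of BRD8518, against 7.38 in DMSO. For CD14 they were SOCS3, ICAM1, BCL3, WFDC2 and IFNGR1 (r from 0.956 to 0.973 over group means and 0.663 to 0.898 over arrays). Among the members, r over group means was 0.889 for LBP and CD14, 0.713 for LBP and LY96 and 0.433 for LY96 and CD14. These correlations are descriptions over 8 groups, and the genes compared share arrays and scaling.

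**Figure D4:**
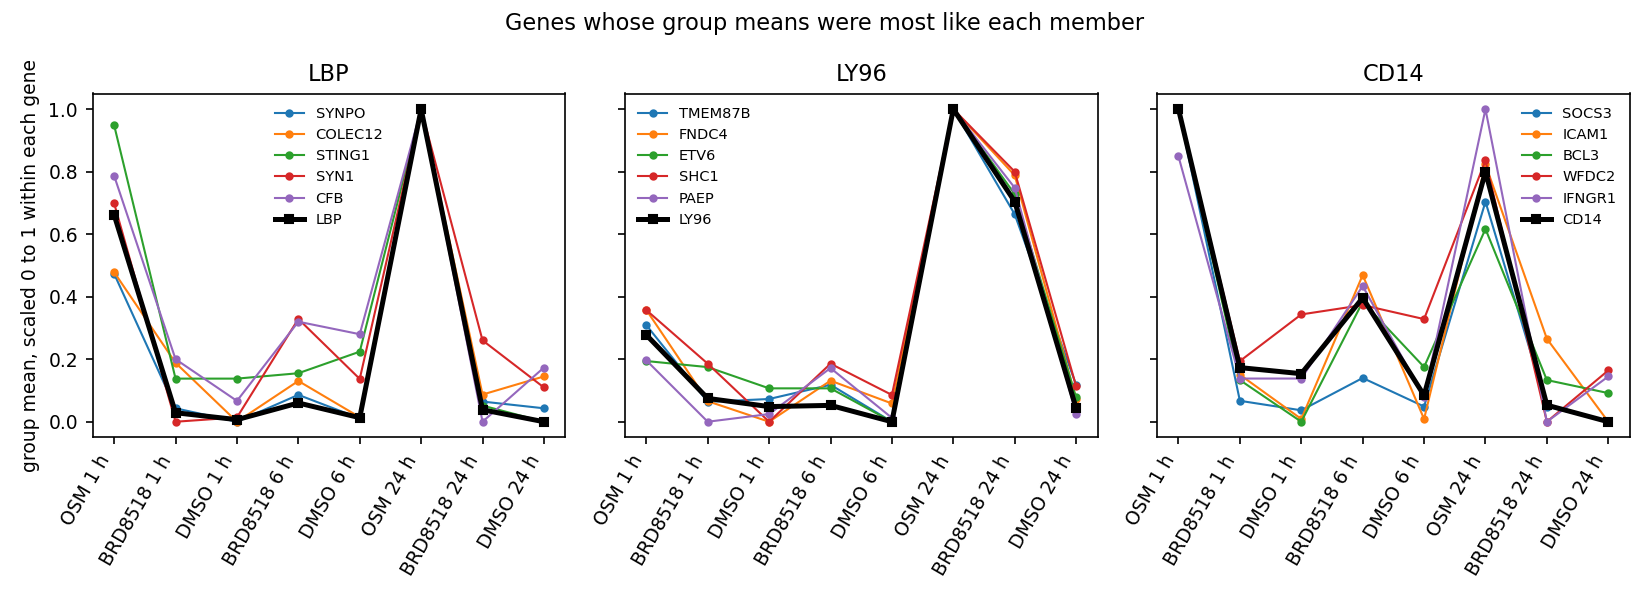
Group means scaled from 0 to 1 within each gene (y axis) over the 8 groups (x axis) for each member (black) and the 5 genes most like it. The LBP and CD14 sets peak in the OSM groups, while the LY96 set is high at 24 h under both OSM and BRD8518.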

How the data were processed

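RNA of 24 HepG2 samples was hybridised to Affymetrix whole-transcript arrays. The authors deposited log2 values, made by RMA with oligo per the submitters' processing notes, which name no version. Values for 53617 probe sets (0.913 to 13.7) were used as deposited. The platform annotation named 1 gene for 16098 probe sets, and 37519 stayed unnamed. For 779 genes with several probe sets the one with the highest mean was kept, which left 14884 genes, with no filter on signal.

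One limma model (version 3.58.1, R 4.3.3) covered all arrays and gave each group its own mean (total degrees of freedom 21.3, median SE of a change against DMSO 0.11 to 0.12), Benjamini-Hochberg adjustment over all genes of a comparison, and a threshold of 0.05. The fit was tested on simulated data. Whether replicates were separate cultures is not labelled, so p-values reflect the spread among these arrays alone, which can be technical.

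The members and gene lists were chosen with earlier results of these data known, so their counts are not independent evidence. Of the listed pathway genes, 86 besides the members were measured. Named list genes are the up to 4 largest changes in each direction past the threshold, plus the measured genes of the receptor complex. Genes like a member are the 5 with the highest r, and neighbours are the nearest 2 measured genes on each side in RefSeq. Alternatives were a signal filter, centring, quantile normalization, other moderation, array weights, a fit restricted to the groups compared, averaging a gene's probe sets, testing all probe sets, the position letter as a term or block, arrays of 1 letter, and leaving out each array. Matplotlib 3.10.9 under Python 3.11 drew the figures.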

Additional observations from a re-analysis of the deposited data

Results flagged for a closer look

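The effect of a treatment on a member differed between time points in 3 tests. The OSM effect on LBP was larger at 24 h than at 1 h by 1.96 (SE 0.18), and that on LY96 by 2.97 (SE 0.30), with limma adjusted p = 4.26e-07 and 8.29e-07. The BRD8518 effect on LY96 was larger at 24 h than at 6 h by 2.49 (SE 0.31, limma, adjusted p = 8.07e-06). All treated arrays at 24 h lay above all vehicle arrays in these cases.

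MYD88 had 1 array far from the rest of its group: DMSO 6 h replicate 2 at 6.57, against 7.20 to 7.26 in the other 3, a gap of 0.907 of the group's range, above the 95% limit of Dixon's test for 4 values. Chance flags about 1 in 20 such groups, and this is the array that stood apart over all genes.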

How the results depend on the processing

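Of the 36 differences of the members, 16 passed, and in 288 of 299 refits these kept direction and call. The 11 losses all concerned LY96 at 1 h. Its difference between BRD8518 and OSM was lost in a fit of the compared groups alone and with all probe sets tested (−0.83 each), with the position letter as a fixed term and with arrays of 1 letter (−0.88 each), where BRD8518 rests on 1 array, and without single arrays (−1.03 to −0.66). Its rise under OSM was 0.85 to 1.01 without single arrays. The highest limma adjusted p in these fits were 0.305 and 0.0785. Of the 20 differences that did not pass, LBP at 6 h of BRD8518 passed with array weights (0.36) and without DMSO 6 h replicate 2 (0.092 to 0.45 without single arrays). The others kept their call.

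Sign changes occurred in 37 refits, all of differences that did not pass. With array weights they were −0.038, 0.063 and −0.039 for LY96 (BRD8518 at 6 h, DMSO 6 h against 1 h, DMSO 24 h against 6 h), −0.13 for the LY96 effect of BRD8518 at 6 h against 1 h, −0.041 and −0.023 for CD14 at 1 h and 24 h of BRD8518, 0.007 for the CD14 effect of OSM between times, and −0.081 for LBP in DMSO at 6 h against 1 h. For CD14 under BRD8518 they were −0.11 at 1 h and −0.036 at 24 h, both with the letter as a fixed term and with arrays of 1 letter, and 0 at 1 h when arrays were centred on the named genes, a setting chosen after seeing the data. CD14 in DMSO at 24 h against 6 h was 0.006 with arrays of 1 letter. Without single arrays, LY96 and CD14 at 1 h of BRD8518 ran from −0.091 to 0.28 and from −0.091 to 0.088, and CD14 at 24 h from −0.12 to 0.15. Differences of effects ran from −0.034 to 0.32 (LBP) and −0.10 to 0.30 (LY96) for BRD8518 at 6 h against 1 h, from −0.23 to 0.12 for LBP at 24 h against 6 h, and from −0.13 to 0.066 for CD14 under OSM. In DMSO at 6 h against 1 h they ran from −0.077 to 0.13 (LBP), −0.35 to 0.004 (LY96) and −0.17 to 0.042 (CD14), and at 24 h against 6 h from −0.17 to 0.039, −0.025 to 0.33 and −0.18 to 0.006.

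Counts of called genes moved more than the members did. Counts with all probe sets are out of 53617 probe sets, not 14884 genes, so they do not compare directly with the others. At 1 h of BRD8518, 38 genes passed, against 81 with array weights, 80 with all probe sets, 15 with the letter as a term and 25 to 76 without single arrays. At 6 h, 2155 passed, against 452 in a fit of the compared groups alone, 3466 with weights, 4008 with all probe sets and 1208 to 3345 without single arrays. At 24 h of BRD8518, 4122 passed, against 7370 with all probe sets. Under OSM, 423 passed at 1 h (1125 with weights, 868 with all probe sets, 274 to 806 without single arrays) and 1526 at 24 h (3068, 2308, and 1107 to 2535). Between BRD8518 and OSM, 349 passed at 1 h (934, 817, 183 with the letter as a term, 224 to 716) and 3458 at 24 h (5286 and 5845). Of the 86 listed genes, those that passed at 6 h of BRD8518 were 14 in all, and 8 to 24 without single arrays. The causes were not tested. A filter that kept genes above the median level left out all 3 members, so it gave no value for them. The letter could not be a term for vehicle over time. No paired analysis was possible because the labels give no replicate numbers. The replicate numbers in this text only count the arrays of a group in the order of their labels. Low RMA values without detection calls limit what can be said of vehicle levels.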
